A study of Homo sapiens with 10 samples.

Results

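The genes described here are 50 neighbours on the long arm of human chromosome 19, band 19q13, named after FBL and RPS16, out of 20289 genes in the deposited table. They were chosen by position near those genes and selected on FPKM levels in PANC-1 against CFPAC-1 read along the region, so that contrast is described and not tested for them. In GENCODE 29 positions (build GRCh38) the first is SPINT2 and the last AXL, and together they run over chr19:38244035-41261766, or 3.018 Mb. All 50 are protein-coding. The table lists 98 genes between these ends, and 48 of them are not members.

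RNA was sequenced from the pancreatic ductal adenocarcinoma lines PANC-1 and CFPAC-1. The drug was imidazole ketone erastin (IKE), which blocks cystine uptake by system xc- and can bring about ferroptosis, an iron-dependent form of cell death, and the study looked for regulators of that death. The groups were PANC-1 with 1 µM IKE (4 libraries), PANC-1 with 0.1% DMSO (2 libraries), CFPAC-1 with 10 µM IKE (2 libraries) and CFPAC-1 with 0.1% DMSO (2 libraries), all for 24 h. Only cells that survived were sequenced, 1 line is set against 1 other, and line and IKE dose differ together. The labels call the replicates bioreplicates but do not say whether they came from separate cultures. The p-values thus measure the spread between these samples, which may be technical. In such bulk samples fewer cells of a kind and less RNA per cell cannot be told apart.

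As background, the band holds genes of quite different work side by side. FBL encodes fibrillarin, the methyltransferase of box C/D snoRNPs that modifies ribosomal RNA in the nucleolus, RPS16 encodes a protein of the small ribosomal subunit, and AKT2 encodes a serine/threonine kinase downstream of PI3K. Neighbouring genes with unrelated roles normally have promoters of their own and need not change together, but they share DNA, and the part of 19q that holds AKT2 is known to be amplified in some pancreatic carcinomas and carcinoma lines, PANC-1 among them. DNA was not measured in this study, and its part in the values below was not tested.

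Values are FPKM, in which fragment counts are divided by transcript length and by the size of the library, which allows levels of different genes to be set side by side. Summed FPKM ran from 432300 to 472665 in the 6 PANC-1 libraries and from 405937 to 416406 in the 4 CFPAC-1 libraries, and the count of reads behind a value is unknown. KRT8, an epithelial keratin, was at 2622 to 3095 FPKM in PANC-1 and 2141 to 2773 FPKM in CFPAC-1, while EPCAM, an epithelial adhesion protein, was at 8.58 to 11.1 FPKM in PANC-1 and 152 to 158 FPKM in CFPAC-1. Of 17 markers of leukocytes, endothelium, fibroblasts, acinar and islet cells 14, PTPRC and INS among them, were under 1 FPKM in all 10 libraries. The other 3 were CD68 at 23.98 to 32.5 FPKM in PANC-1 and 42.02 to 46.3 FPKM in CFPAC-1, PECAM1 at 0.03 to 0.08 FPKM in PANC-1 and 18.4 to 21.3 FPKM in CFPAC-1, and COL1A1 at 17.9 to 24.9 FPKM in PANC-1 and 3.56 to 5.64 FPKM in CFPAC-1, and the part of such cells in the results was not tested. PANC-1 IKE replicate 2 had the highest FPKM total and was the highest of its group of 4 for 33 of 49 members, against 36.0% of all tested genes. The part of that library in the results was not tested, and values without it are among the alternatives in the closing section.

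Most members were higher in PANC-1, in the contrast that the rule read, and the size of the difference varied along the region. A member or other gene was kept for fitting if at least 2 libraries reached 1 FPKM, which 49 members and 13077 genes did. PPP1R14A, FBXO17, DLL3 and EID2B passed through PANC-1 libraries alone, and the one member that failed was NCCRP1, a paralog of F-box proteins, with 0.31, 0.44, 0.11 and 0.22 FPKM in PANC-1 with IKE, 0.22 and 0.40 in PANC-1 with DMSO, 0 and 0 in CFPAC-1 with IKE and 0 and 0.06 in CFPAC-1 with DMSO. Differences between the lines are of log2(FPKM + 1), PANC-1 with DMSO minus CFPAC-1 with DMSO, and understate the change of low genes. Their median was 2.79 over the 49 members and 0.12 over all tested genes, and with IKE in both lines it was 2.68 and 0.10. It was 0.08 over the 21 tested genes of the same stretch that are not members, 1.53 over all 70 tested genes between the ends, and 0.27 over the 889 tested genes of the rest of chromosome 19.

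Over all 10 libraries, the 6 of PANC-1 lay above the 4 of CFPAC-1 without overlap for 37 of the 49 members, against 41.4% of all tested genes. They lay below without overlap for 6 members, GMFG, PLD3, PRX, COQ8B, ITPKC and AXL, against 34.5% of all tested genes. The lines overlapped for FCGBP, SERTAD1, SERTAD3, SHKBP1, LTBP4 and SNRPA. A log2 difference of at least 3 was found for 23 members and 1.23% of all tested genes, and one of at least 4 for 11 members and 0.421%. Since the rule read this contrast, these shares are given as a description and nothing is read from them.

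**Figure D1:**
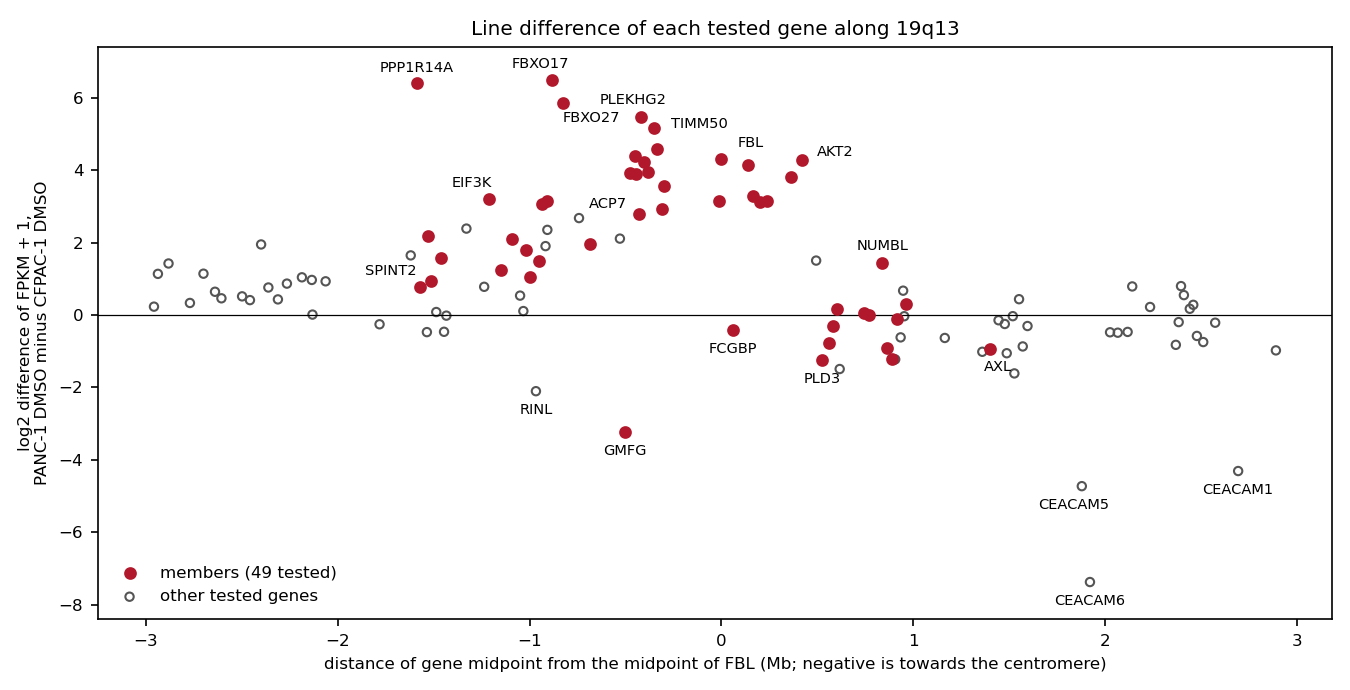
Log2 difference of FPKM + 1, PANC-1 with DMSO minus CFPAC-1 with DMSO (vertical axis), of every tested gene by the distance of its midpoint from the midpoint of FBL in Mb (horizontal axis); filled points are the 49 tested members and open points other tested genes. The members from SAMD4B to AKT2 have a median of 3.91 and run from -0.43 (FCGBP) to 5.48 (PLEKHG2). The members from PLD3 to AXL have a median of -0.22.

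The region fell into 3 stretches, which were chosen after the values were seen and are given with no test. The 16 members from SPINT2 to PAK4, at the centromere side, had differences of 0.77 to 6.48 with a median of 2.02, and all 28 tested genes of that stretch had a median of 1.68. GMFG, between PAK4 and SAMD4B, had a difference of -3.24 and was counted in none of the stretches. From SAMD4B to AKT2 (chr19:39342396-40285536, 0.943 Mb) every one of the 20 tested genes is a member. Their median was 3.91, and 19 of the 20 had a difference of at least 2 (3.85% of all tested genes did), the exception being FCGBP at -0.43. From PLD3 to AXL the 12 members ran from -1.25 to 1.44 with a median of -0.22, and the 19 tested genes of that stretch had a median of -0.62. By median the middle stretch stood above both of its flanks. Single genes did not follow this order, as FBXO17 at 6.48, PPP1R14A at 6.42 and FBXO27 at 5.85 lie in the stretch from SPINT2 to PAK4.

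The step at the telomere side was narrow. AKT2 had a difference of 4.28, the next tested gene C19orf47, which begins 34.0 kb past the end of AKT2 and is no member, was at 15.15 and 14.34 FPKM in PANC-1 with DMSO and 4.91 and 4.23 FPKM in CFPAC-1 with DMSO, and PLD3, which begins 62.92 kb past it, had a difference of -1.25. C19orf47 and PLD3 overlap on opposite strands, so their values are uncertain. In windows of 1 Mb along chromosome 19 the median difference was 0.70 at 37 to 38 Mb, 1.48 at 38 to 39 Mb, 3.91 at 39 to 40 Mb, 0.03 at 40 to 41 Mb and -0.49 at 41 to 42 Mb. Just outside the first member, ZNF573 had a difference of 0.93, SIPA1L3 of -0.26 and DPF1 of 1.64, against 0.77 for SPINT2 just inside. Just past the last member, HNRNPUL1 had -0.15, TGFB1 had -1.06 and CCDC97 had -0.25, against -0.93 for AXL just inside.

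Where both DMSO groups reached 1 FPKM in each library a fold of mean FPKM could be given, PANC-1 over CFPAC-1. Between SAMD4B and AKT2 this held for 18 members, whose median fold was 15.9, and 10 of the 18 lay between 15 and 25. These 10 were SAMD4B at 15.8, PAF1 at 22.4, MED29 at 15.9, RPS16 at 18.7, SUPT5H at 15.9, EID2 at 15.8, FBL at 19.8, PSMC4 at 18.03, MAP3K10 at 20.01 and AKT2 at 19.7. These 10 were picked by that band, so their closeness follows from the pick and nothing is read from it. Over all 18 the folds ran from 0.651 to 50.2. Outside that band, TIMM50 and PLEKHG2 were higher, at 38.00 and 50.2, and ZNF546, ZNF780B, DYRK1B, ZNF780A, ZFP36 and FCGBP were lower, at 12.4, 11.02, 10.2, 9.54, 7.86 and 0.651.

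**Figure D2:**
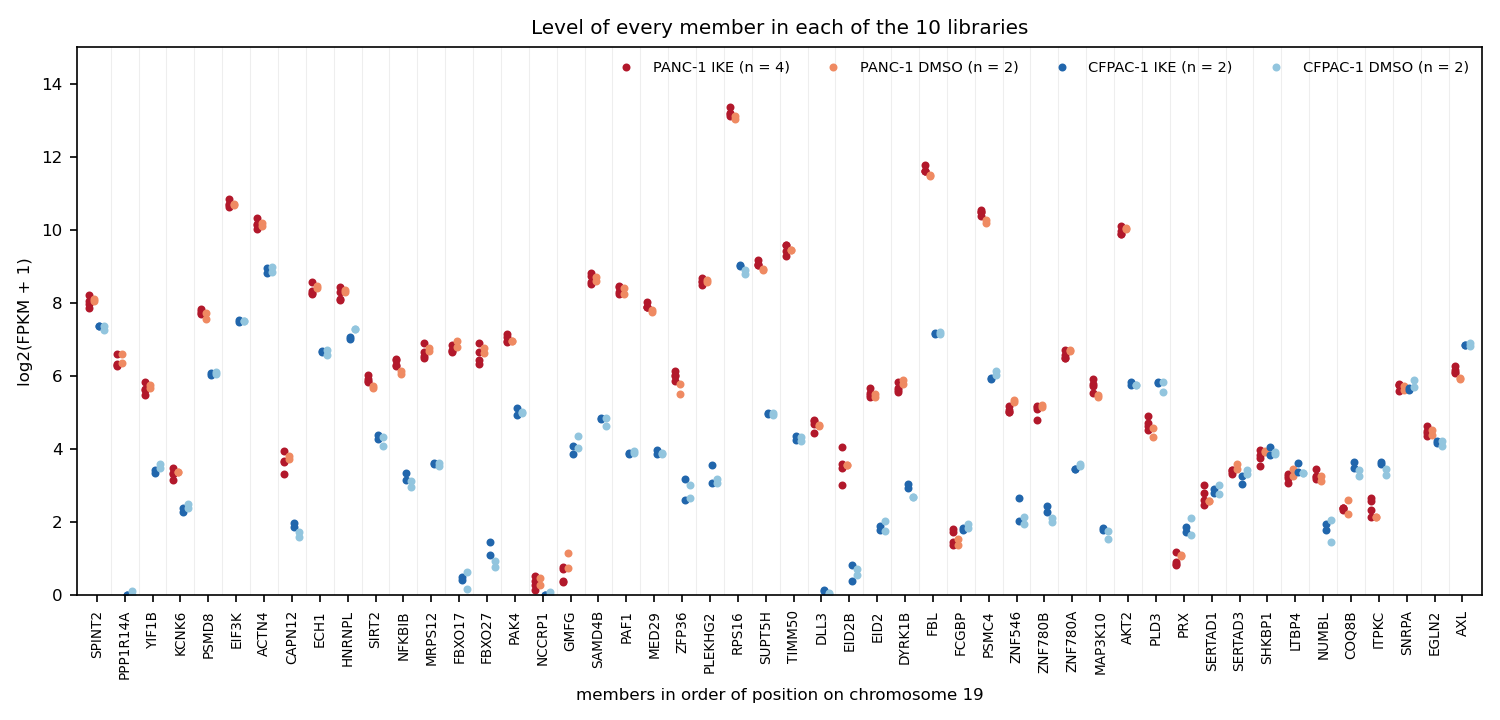
Level of each of the 50 members, log2(FPKM + 1) (vertical axis), in the 10 libraries, with members in order of position (horizontal axis) and points coloured by group: PANC-1 with IKE (n = 4), PANC-1 with DMSO (n = 2), CFPAC-1 with IKE (n = 2) and CFPAC-1 with DMSO (n = 2). The 2 colours of a line lie close together for most members, whereas the lines stand apart from SAMD4B to AKT2, FCGBP excepted, and come together or change order past AKT2.

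Genes of the ribosome, translation, the nucleolus and protein breakdown had the highest median difference of the 5 roles the members were sorted into, 4.19 over 8 tested members. The order of the roles is a description only, since the rule read this contrast. RPS16 (chr19:39433207-39435948, minus strand) was at 9344, 10478, 8868 and 9266 FPKM in PANC-1 with IKE, 8392 and 8864 in PANC-1 with DMSO, 518 and 523 in CFPAC-1 with IKE and 444 and 478 in CFPAC-1 with DMSO. FBL (chr19:39834458-39846414, minus strand) was at 3118, 3497, 3147 and 3107 FPKM in PANC-1 with IKE, 2842 and 2895 in PANC-1 with DMSO, 145 and 141 in CFPAC-1 with IKE and 147 and 142 in CFPAC-1 with DMSO. Both were higher in every PANC-1 library than in any CFPAC-1 library, by 18.7-fold (lowest pair of libraries 17.6, highest 19.98) for RPS16 and 19.8-fold (lowest pair of libraries 19.4, highest 20.3) for FBL with DMSO. RPS16 has processed pseudogene copies elsewhere in the genome, so the split of its reads is uncertain.

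Such levels put RPS16 among the most abundant RNAs of PANC-1. It ranked 2 or 3 of all genes by FPKM in the PANC-1 libraries and 79 to 95 in the CFPAC-1 libraries, and FBL ranked 6 or 7 in PANC-1 and 379 to 396 in CFPAC-1. The 50 members together took 5.08% ± 0.192 of summed FPKM in PANC-1 with IKE (SD, n = 4) and 4.91% ± 0.0346 in PANC-1 with DMSO (SD, n = 2). They took 0.590% ± 0.00723 in CFPAC-1 with IKE and 0.589% ± 0.00449 in CFPAC-1 with DMSO (SD, n = 2 each). RPS16 alone made 39.4% to 41.6% of the members' sum in PANC-1 and 18.7% to 21.5% in CFPAC-1.

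PSMC4, an ATPase of the 19S cap of the proteasome, was at 1436, 1479, 1337 and 1435 FPKM in PANC-1 with IKE, 1236 and 1172 in PANC-1 with DMSO, 59.00 and 60.95 in CFPAC-1 with IKE and 64.5 and 69.1 in CFPAC-1 with DMSO. EIF3K, a subunit of the translation initiation factor eIF3 that lies nearer the centromere, was at 1685, 1843, 1632 and 1585 FPKM in PANC-1 with IKE, 1676 and 1650.3 in PANC-1 with DMSO, 177 and 183 in CFPAC-1 with IKE and 181 and 182 in CFPAC-1 with DMSO. Neither gene's lines overlapped, and with DMSO the folds were 18.03 for PSMC4 and 9.16 for EIF3K. MRPS12, a protein of the small mitochondrial ribosomal subunit, was 9.63-fold higher in PANC-1, and PSMD8, a non-ATPase subunit of the 19S cap near the centromere end, 2.99-fold. MRPS12 shares exon bases with SARS2 on the other strand, and use of the strand in the authors' counting was not stated in the material analysed, so both values are uncertain.

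FBXO17 and FBXO27, F-box proteins that recognise glycoproteins for ubiquitin ligases, were nearly restricted to PANC-1. FBXO17 shares exon bases with another gene on the same strand, so its values are uncertain. FBXO17 was at 111 and 123 FPKM in PANC-1 with DMSO and 0.12 and 0.56 FPKM in CFPAC-1 with DMSO, and at up to 115 FPKM with IKE in PANC-1 and up to 0.42 FPKM with IKE in CFPAC-1. FBXO27 was at 101, 119, 86.3 and 79.8 FPKM in PANC-1 with IKE, 98.95 and 108 in PANC-1 with DMSO, 1.75 and 1.15 in CFPAC-1 with IKE and 0.91 and 0.73 in CFPAC-1 with DMSO. Their log2 differences of 6.48 and 5.85 were the first and the third in size among the members, and no fold is given because CFPAC-1 libraries lay under 1 FPKM.

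In the transcription and RNA processing group 11 of 14 members had a difference of at least 1, against 16.3% of all tested genes, and the group's median was 3.13. PAF1, the name-giving subunit of the PAF1 elongation complex, was at 301, 343, 354 and 316 FPKM in PANC-1 with IKE, 300.3 and 338 in PANC-1 with DMSO, 13.8 and 13.5 in CFPAC-1 with IKE and 14.03 and 14.5 in CFPAC-1 with DMSO. SUPT5H, the large subunit of the elongation factor DSIF, was at 532, 573, 528 and 527 FPKM in PANC-1 with IKE, 483 and 478 in PANC-1 with DMSO, 30.2 and 31.00 in CFPAC-1 with IKE and 29.4 and 30.9 in CFPAC-1 with DMSO. MED29, a subunit of the Mediator complex, was at 237, 261, 236 and 238 FPKM in PANC-1 with IKE, 213 and 225 in PANC-1 with DMSO, 13.5 and 14.7 in CFPAC-1 with IKE and 13.9 and 13.6 in CFPAC-1 with DMSO. In all 3 genes the lowest PANC-1 library lay far above the highest CFPAC-1 library.

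SAMD4B, an RNA-binding regulator of translation, was at 421 and 390.0 FPKM in PANC-1 with DMSO and 27.7 and 23.7 FPKM in CFPAC-1 with DMSO, and EID2, an inhibitor of histone acetyltransferase-dependent transcription, at 41.7 and 44.4 FPKM in PANC-1 with DMSO and 3.07 and 2.39 FPKM in CFPAC-1 with DMSO. Its neighbour EID2B ranged from 7.15 to 15.8 FPKM over the 6 PANC-1 libraries and 0.32 to 0.77 FPKM over the 4 CFPAC-1 libraries. The zinc finger genes ZNF546, ZNF780B and ZNF780A had differences of 3.28, 3.11 and 3.14. ZNF780A and ZNF780B resemble each other in sequence, so the split of their reads is uncertain. ZFP36, which encodes tristetraprolin, a protein that speeds the decay of AU-rich mRNAs, had a smaller difference than its neighbours, at 44.6 and 53.8 FPKM in PANC-1 with DMSO and 7.17 and 5.35 FPKM in CFPAC-1 with DMSO.

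The other members of this group lie outside the middle stretch and differed less. HNRNPL, a splicing regulator between ECH1 and SIRT2, was 2.07-fold higher in PANC-1. SNRPA, a protein of the U1 spliceosomal particle, which lies between ITPKC and EGLN2, was at 52.3 and 48.04 FPKM in PANC-1 with DMSO and 58.2 and 50.9 FPKM in CFPAC-1 with DMSO. SERTAD1 and SERTAD3, transcriptional cofactors just past PLD3, had differences of -0.31 and 0.15, and that of SERTAD3 turned to -0.03 under median-ratio scaling. The lines overlapped for all 3 of SNRPA, SERTAD1 and SERTAD3.

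Among kinases, receptors and signalling genes 8 of 10 had a difference of at least 1, against 16.3% of all tested genes, with a median of 3.09. AKT2 (chr19:40230317-40285536, minus strand) was at 998, 1107, 953 and 947 FPKM in PANC-1 with IKE, 1058 and 1037 in PANC-1 with DMSO, 55.9 and 53.3 in CFPAC-1 with IKE and 52.6 and 53.5 in CFPAC-1 with DMSO. With DMSO it was 19.7-fold higher in PANC-1 (lowest pair of libraries 19.4, highest 20.1), and it ranked 25 to 35 among all genes in PANC-1 and 1302 to 1404 in CFPAC-1. MAP3K10, a mixed-lineage kinase upstream of JNK and the neighbour of AKT2, was at 42.2 and 43.4 FPKM in PANC-1 with DMSO and 1.89 and 2.39 FPKM in CFPAC-1 with DMSO. DYRK1B, a kinase tied to quiescence that lies beside FBL, was at 58.1 and 54.2 FPKM in PANC-1 with DMSO and 5.49 and 5.48 FPKM in CFPAC-1 with DMSO, a fold of 10.2.

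PLEKHG2, a guanine nucleotide exchange factor, was at 387, 409, 362 and 382 FPKM in PANC-1 with IKE, 395 and 381 in PANC-1 with DMSO, 7.46 and 10.9 in CFPAC-1 with IKE and 8.08 and 7.38 in CFPAC-1 with DMSO. DLL3, an inhibitory Notch ligand, was at 25.01, 27.1, 20.7 and 26.1 FPKM in PANC-1 with IKE, 23.9 and 24.3 in PANC-1 with DMSO, 0.11 and 0.09 in CFPAC-1 with IKE and 0.05 and 0.03 in CFPAC-1 with DMSO. Both were high in all PANC-1 libraries, and DLL3 was close to 0 in all CFPAC-1 libraries. Nearer the centromere, NFKBIB, an inhibitor of NF-kB, was 9.27-fold higher in PANC-1 and PAK4, an effector kinase of CDC42, 3.96-fold. NFKBIB shares exon bases with SIRT2 on the other strand.

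Past AKT2 the signalling genes behaved otherwise. AXL, a receptor tyrosine kinase for GAS6 and the last member, was at 67.01, 76.8, 70.6 and 68.6 FPKM in PANC-1 with IKE, 61.3 and 59.9 in PANC-1 with DMSO, 115 and 115 in CFPAC-1 with IKE and 119.6 and 113 in CFPAC-1 with DMSO. All PANC-1 libraries lay below all CFPAC-1 libraries, and the fold was 0.521 with DMSO. NUMBL, a NUMB-related adaptor in Notch signalling, was the one member past AKT2 with a difference of at least 1, at 8.68 and 7.82 FPKM in PANC-1 with DMSO and 1.78 and 3.18 FPKM in CFPAC-1 with DMSO. SHKBP1, a regulator of EGF receptor breakdown, had a difference of 0.05, which turned to -0.02 under quantile normalization and -0.14 under median-ratio scaling.

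Of the 7 members sorted under the mitochondrion and metabolism, TIMM50 stood apart. TIMM50, a receptor subunit of the TIM23 complex that imports proteins into mitochondria, was at 763, 772, 623 and 681 FPKM in PANC-1 with IKE, 702 and 698 in PANC-1 with DMSO, 19.6 and 18.1 in CFPAC-1 with IKE and 17.6 and 19.3 in CFPAC-1 with DMSO. Its lines did not overlap, and with DMSO it was 38.00-fold higher in PANC-1 (lowest pair of libraries 36.2, highest 39.98). ECH1, an enzyme of fatty acid oxidation, and SIRT2, an NAD-dependent deacetylase, both nearer the centromere, were 3.49-fold and 2.89-fold higher in PANC-1.

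Past AKT2 the same role held genes that were lower in PANC-1. PLD3, a lysosomal exonuclease, was at 23.9, 25.3, 29.04 and 22.2 FPKM in PANC-1 with IKE, 22.7 and 19.3 in PANC-1 with DMSO, 55.9 and 55.5 in CFPAC-1 with IKE and 56.5 and 46.3 in CFPAC-1 with DMSO. ITPKC, a kinase of inositol trisphosphate, was at 3.45 and 3.44 FPKM in PANC-1 with DMSO and 8.73 and 9.92 FPKM in CFPAC-1 with DMSO, and COQ8B, which is needed for coenzyme Q synthesis, at 5.12 and 3.69 FPKM in PANC-1 with DMSO and 8.63 and 9.74 FPKM in CFPAC-1 with DMSO. For PLD3, ITPKC and COQ8B all PANC-1 libraries lay below all CFPAC-1 libraries, with folds of 0.409, 0.369 and 0.480. ITPKC and COQ8B share exon bases on opposite strands. EGLN2, a prolyl hydroxylase that marks HIF for breakdown, was 1.25-fold higher in PANC-1.

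The cytoskeletal, membrane and secreted members were the most mixed, with a median of 0.85 and a range from -3.24 to 6.42. PPP1R14A, an inhibitor of myosin phosphatase next to SPINT2, was at 76.5, 96.1, 80.2 and 77.3 FPKM in PANC-1 with IKE, 81.2 and 96.01 in PANC-1 with DMSO, 0 and 0 in CFPAC-1 with IKE and 0.09 and 0 in CFPAC-1 with DMSO. GMFG, a glia maturation factor family member that acts on branched actin, was at 0.29, 0.70, 0.66 and 0.31 FPKM in PANC-1 with IKE, 1.22 and 0.68 in PANC-1 with DMSO, 13.6 and 15.9 in CFPAC-1 with IKE and 15.2 and 19.5 in CFPAC-1 with DMSO. PPP1R14A was all but limited to PANC-1 and GMFG to CFPAC-1, though they lie in the same region. ACTN4, an actin crosslinker, was 2.36-fold higher in PANC-1, YIF1B, a protein of ER to Golgi traffic, 4.84-fold, CAPN12, a calpain whose exons overlap ACTN4 on the other strand, 5.75-fold, KCNK6, a potassium channel, 2.12-fold, and SPINT2, an inhibitor of serine proteases, 1.71-fold.

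FCGBP, a mucin-like secreted protein, lies between FBL and PSMC4 and was the one tested gene of the middle stretch without a higher level in PANC-1. It was at 2.52, 2.32, 1.74 and 1.58 FPKM in PANC-1 with IKE, 1.94 and 1.60 in PANC-1 with DMSO, 2.49 and 2.61 in CFPAC-1 with IKE and 2.84 and 2.60 in CFPAC-1 with DMSO. The lines overlapped, while its neighbours on both sides differed 18.03-fold or more. PRX, a scaffold of myelinating cells, was at 1.17 and 1.13 FPKM in PANC-1 with DMSO and 2.15 and 3.33 FPKM in CFPAC-1 with DMSO, and LTBP4, a binding protein of latent TGF-beta, at 9.97 and 8.71 FPKM in PANC-1 with DMSO and 9.28 and 9.26 FPKM in CFPAC-1 with DMSO. The difference of LTBP4 was 0.01 and turned to -0.17 under median-ratio scaling.

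GMFG and SAMD4B show how sharply 2 neighbours could differ. By their outermost annotated ends the genes face away from each other on opposite strands, with 23 bases between them (chr19:39342373-39342395). These bases are shown because they part the lowest from a high difference of the region, -3.24 for GMFG and 3.93 for SAMD4B. They need not lie between the starts in use. The RefSeq promoter windows described below held 7 CpG dinucleotides for GMFG and 50 for SAMD4B, so they may not sit at these ends. Which starts these cells used was not tested. The sequence is from RefSeq, build GRCh38.p14, plus strand.
between GMFG and SAMD4B: gccggcgcgcggcggcccccgtc

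Promoters, the bases around a gene's start, were compared among the members, whose line differences ran from -3.24 to 6.48. RefSeq windows of 250 bases before to 50 bases after the start matched 45 of 50 members and 10478 tested genes. The windows held a median of 27 CpG dinucleotides among the members and 26 among the tested genes. Of 7 motifs searched by their letters on both strands, where 1 base may count for more than 1 motif, none was in every member. The GC box GGGCGG was in 80.0% of the members and 70.2% of the tested genes, CCAAT in 48.9% and 36.8%, the ETS letters CCGGAAG in 15.6% and 19.4%, and the E-box CACGTG in 11.1% and 10.0%. The antioxidant response element core TGACNNNGC was in 17.8% and 14.9%, TATAAA in 4.44% and 5.67%, and the amino acid response core TGATGCAA in 0 members and 0.515%. No test was made of these shares, and a match is a description of letters only.

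Stretches just before the start of 5 members are printed below from RefSeq (GRCh38.p14, each on its gene's strand, exons of annotated genes left out), with the GC box and CCAAT in capitals. EIF3K (chr19:38618938-38619081, plus), RPS16 (chr19:39435950-39436099, minus) and FBL (chr19:39846415-39846564, minus) stand for members with a large line difference, FCGBP (chr19:39934635-39934784, minus) for the exception among them, and AXL (chr19:41219053-41219202, plus) for a member lower in PANC-1. EIF3K holds 14 CpG dinucleotides in its stretch, RPS16 and FBL 16 each, and FCGBP and AXL 2 each. These examples do not stand for a relation of CpG to the line difference. In the full windows FCGBP had 4 and AXL 7, among the lowest of the members, whereas PLD3 had 35, ITPKC 34 and COQ8B 32, all 3 lower in PANC-1, RPS16 had 32 and ZNF780B, higher in PANC-1, had 12.
EIF3K: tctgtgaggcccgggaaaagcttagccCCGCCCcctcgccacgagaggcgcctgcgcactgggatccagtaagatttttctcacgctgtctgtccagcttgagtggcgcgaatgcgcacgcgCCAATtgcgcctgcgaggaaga
RPS16: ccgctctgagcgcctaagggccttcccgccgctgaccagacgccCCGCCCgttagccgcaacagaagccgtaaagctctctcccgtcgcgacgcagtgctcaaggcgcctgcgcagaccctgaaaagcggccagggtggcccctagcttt
FBL: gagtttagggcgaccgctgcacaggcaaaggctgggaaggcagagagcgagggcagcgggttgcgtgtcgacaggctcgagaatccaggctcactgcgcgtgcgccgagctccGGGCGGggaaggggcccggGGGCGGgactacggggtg
FCGBP: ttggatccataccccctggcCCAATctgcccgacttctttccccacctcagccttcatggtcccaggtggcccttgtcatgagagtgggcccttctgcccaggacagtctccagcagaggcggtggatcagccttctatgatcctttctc
AXL: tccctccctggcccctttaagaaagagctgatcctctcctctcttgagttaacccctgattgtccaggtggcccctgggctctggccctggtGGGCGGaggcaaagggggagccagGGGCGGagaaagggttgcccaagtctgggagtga

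Many members work in complexes or pathways whose other genes lie elsewhere. Members were chosen on the line difference, so their values set beside partners here and below are a description only. The partner lists hold no member, so here the line contrast was tested, with limma on log2(FPKM + 1) over all 13077 genes. By that test 43.4% of all tested genes were higher in PANC-1 and 35.2% lower (adjusted p under 0.05). That balance, against which the counts of partners stand, turned with the scaling: 5678 genes were higher and 4608 lower with FPKM as deposited, and 4709 were higher and 5409 lower under median-ratio scaling. The 32 other proteins of the small ribosomal subunit had a median difference of 0.13, 11 higher and 10 lower, and ran from -0.71 (RPS6) to 0.85 (RPS13). Under median-ratio scaling their median was -0.07, with 8 higher and 13 lower. Of the 9 partners of FBL in box C/D snoRNPs and their assembly, 6 were higher and 3 lower, with a median of 0.60. NOP56, a core protein, was higher by 1.00 (adjusted p = 2.81e-07), RUVBL1, an assembly ATPase, by 1.16 (adjusted p = 3.43e-07) and the assembly factor ZNHIT6 by 1.14 (adjusted p = 2.82e-06).

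Partners of the proteasome cap leaned to PANC-1, with 10 higher and 3 lower of 16 and a median of 0.77, PSMD14 having the highest difference, 1.82. The eIF3 partners had 9 higher and 2 lower of 12, with a median of 0.66 and the highest difference, 1.72, in EIF3B. The 9 TIM23 partners of TIMM50 had 7 higher and none lower, with a median of 1.11 and TIMM21 at 1.78. Under median-ratio scaling 6 of them were higher and 1 lower, with a median of 0.91. The 28 mitochondrial small subunit partners of MRPS12 had 15 higher and 4 lower and a median of 0.36, which became 10 higher and 10 lower and 0.17 under median-ratio scaling. In none of these lists, nor among the 40S or box C/D partners, did a partner differ by 2 or more. The members EIF3K, MRPS12, PSMC4 and TIMM50 had differences of 3.19, 3.15, 4.15 and 5.18. The rule read these differences of members and not those of partners, so nothing is read from the contrast. PSMD8, at 1.56, lay below its cap partners PSMD14, PSMD2 at 1.63, PSMD11 at 1.62 and PSMD13 at 1.61.

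Partners in transcription were mixed. Of 29 Mediator partners 12 were higher and 11 lower, with a median of 0.00 (7, 13 and -0.19 under median-ratio scaling), and MED1 was lower by 1.06 on the log2 scale (log2 difference -1.06, adjusted p = 8.12e-08). Of 10 genes of the PAF1 complex, DSIF and NELF 6 were higher and 2 lower, and 3 were higher and 3 lower under median-ratio scaling. CTR9, the scaffold of the PAF1 complex, was higher by 1.63 (adjusted p = 7.14e-09), whereas SUPT4H1, which forms DSIF with SUPT5H, had a difference of -1.66 (adjusted p = 1.60e-08), opposite to its partner. The U1 and Sm partners of SNRPA had 6 higher and 1 lower of 9 and a median of 0.45.

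In signalling, 5 of 16 PI3K-AKT pathway genes were higher and 4 lower, with a median of 0.13, and under median-ratio scaling 2 were higher and 7 lower, with a median of -0.06. AKT1 had a difference of 0.39 (adjusted p = 0.00329; 0.20 and 0.0836 under median-ratio scaling), against 4.28 for AKT2. FOXO1, a transcription factor held back by AKT, had -1.56 (adjusted p = 8.78e-08), MTOR 0.94 (adjusted p = 1.14e-06) and GSK3A 0.80 (adjusted p = 2.38e-05). Of the 4 partners of AXL 3 differed by more in size than AXL, which had -0.93. GAS6, its ligand, had 2.64 (adjusted p = 1.27e-08) with 7.04 and 6.04 FPKM in PANC-1 with DMSO and 0.15 and 0.27 FPKM in CFPAC-1 with DMSO, MERTK had 1.76 (adjusted p = 2.03e-08) and PROS1, another ligand of the family, -1.81 (adjusted p = 1.46e-09).

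Of the 6 other Notch ligands and receptors tested, 1 was higher and 5 lower, with DLL1 at -2.05 (adjusted p = 3.73e-08) and JAG1 at -1.34 (adjusted p = 8.95e-08), against 4.59 for DLL3. For NF-kB and its inhibitors 3 were higher and 2 lower of 8, with a median that turned to -0.06 under median-ratio scaling against 0.13 as deposited, and NFKBIZ had -2.81 (adjusted p = 2.13e-11). The HIF hydroxylase axis had 5 higher and 2 lower of 7, with HIF1A at -1.48 (adjusted p = 4.67e-09). The 12 coenzyme Q genes had 6 higher and 2 lower, 5 tested sirtuins 3 higher and none lower, and 3 tested PAK kinases 1 higher and 1 lower. Under median-ratio scaling the HIF axis had 3 higher and 2 lower, the coenzyme Q genes 4 and 3, and the sirtuins 3 and 2. Of 17 tested paralogs of other members 6 were higher and 9 lower with a median of -0.63, and SPINT1, the paralog of SPINT2, had -4.42 (adjusted p = 5.44e-11), ZFP36L1 -3.29 (adjusted p = 2.95e-11) and LTBP1 3.03 (adjusted p = 2.17e-10).

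The level of a member was set against the median FPKM of its partners in the same library, as a description of RNA levels. The rule read the line difference of all members, so a higher ratio in PANC-1 is no result for any member, inside or outside the middle stretch. The ratio also moves with the partners. FBL was at 47.8 ± 0.168 times the median of NOP56, NOP58 and SNU13 in PANC-1 with DMSO and 2.69 ± 0.0833 times in CFPAC-1 with DMSO (SD, n = 2 each). RPS16 was at 19.02 ± 1.18 times the median of its 32 partners in PANC-1 and 1.18 ± 0.0143 times in CFPAC-1. In CFPAC-1 with DMSO, RPS16 ranked 14 or 15 of the 33 small subunit genes, and in PANC-1 it ranked 2. SUPT5H was at 23.9 ± 2.17 times SUPT4H1 in PANC-1 and 0.459 ± 0.0142 times in CFPAC-1. SUPT4H1 itself had a mean of 20.2 FPKM in PANC-1 with DMSO and 65.7 FPKM in CFPAC-1 with DMSO.

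Ratios for further complexes are given in the same way. As means of the 2 DMSO libraries, the ratio was 27.1 in PANC-1 and 1.93 in CFPAC-1 for TIMM50, 17.1 and 1.07 for MED29, 14.6 and 1.44 for PSMC4, 14.1 and 1.38 for PAF1, and 13.5 and 2.08 for EIF3K. TIMM50, MED29, PSMC4, PAF1 and EIF3K each ranked 1 in their complex in PANC-1. The ratios were closer between the lines for 3 members outside the middle stretch, at 2.41 in PANC-1 and 1.44 in CFPAC-1 for PSMD8, 1.35 and 0.936 for EGLN2, and 0.913 and 1.27 for SNRPA. MRPS12, which like EIF3K lies outside that stretch, had 3.85 in PANC-1 and 0.496 in CFPAC-1, and ACTN4 against ACTN1 9.28 and 1.66. ACTN1 itself was at 120 to 124 FPKM in PANC-1 with DMSO and 275 to 304 FPKM in CFPAC-1 with DMSO.

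**Figure D3:**
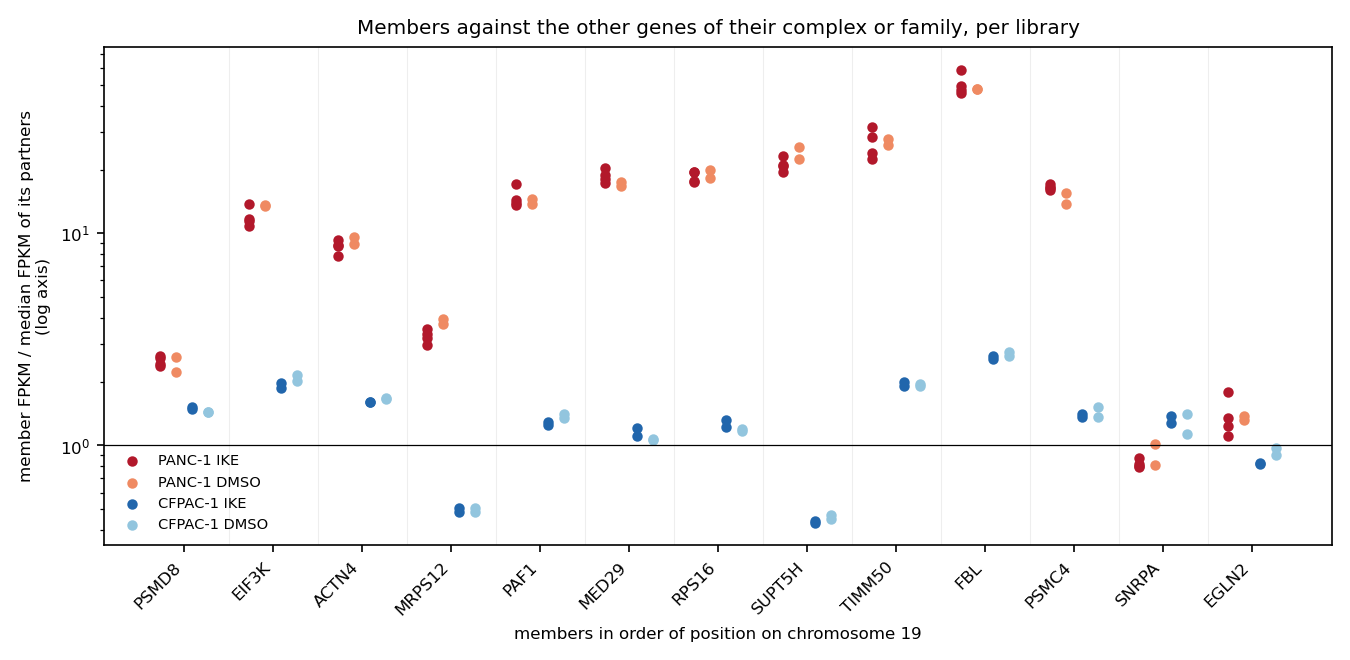
FPKM of 13 members divided by the median FPKM of their partners outside the region (vertical axis, log scale), per library and coloured by group, in order of position (horizontal axis); the line marks equality. FBL lies at 45.9 to 59.1 in PANC-1 libraries and 2.57 to 2.75 in CFPAC-1 libraries, and past AKT2 SNRPA lies at 0.788 to 1.02 in PANC-1 and 1.13 to 1.41 in CFPAC-1, and EGLN2 at 1.10 to 1.79 in PANC-1 and 0.818 to 0.974 in CFPAC-1.

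No member was called for an IKE effect. Few of all tested genes were called either, so the lack of calls is no result about the members. IKE against DMSO was not part of how the members were chosen and was tested with limma over all 13077 genes. In PANC-1 no member passed an adjusted p of 0.05, against 2.38% of all tested genes (158 up and 153 down), and in CFPAC-1 none did, against 1.32% (113 up and 60 down). The difference of the IKE effects between the lines, which uses the same libraries, was called for no member and 0.336% of all tested genes. At an unadjusted p under 0.05 limma gave 11 members in PANC-1, 4 in CFPAC-1 and 6 for the difference, which were 22.4%, 8.16% and 12.2% of the 49, against 17.6%, 13.6% and 12.3% of all tested genes.

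On the log2(FPKM + 1) scale the effects were small throughout. In PANC-1 the members' log2 fold changes had a median of 0.01, with 25 above and 24 below 0, and ran from -0.39 for GMFG to 0.37 for ZFP36. In CFPAC-1 the median was 0.03, with 29 above and 20 below 0, and they ran from -0.26 for HNRNPL to 0.42 for FBXO27. The value of FBXO27 was 0.24 without CFPAC-1 IKE replicate 1 and 0.73 with a pseudocount of 0.1. The medians over all tested genes were -0.01 in PANC-1 and 0.00 in CFPAC-1. The 95% confidence interval of the log2 fold change lay within -1 and 1 for all 49 tested members in each line. In CFPAC-1 this, like the lack of a call, says little for PPP1R14A, FBXO17, DLL3 and EID2B, which lay under 1 FPKM in every CFPAC-1 library. For such genes the added 1 keeps the log2 fold change near 0. GMFG, kept through CFPAC-1 libraries, was likewise low in PANC-1, with means of 0.49 FPKM with IKE and 0.95 FPKM with DMSO.

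The members with the smallest p in PANC-1 were PSMC4, AXL and NFKBIB. PSMC4, whose libraries are given above, had no call. Its log2 fold change in PANC-1 was 0.24 with a 95% interval of 0.11 to 0.37 (adjusted p = 0.0647), and all 4 IKE libraries lay above both DMSO libraries. Under quantile normalization it was 0.04 (adjusted p = 0.897). AXL had 0.22 (adjusted p = 0.0960) and NFKBIB 0.27 (adjusted p = 0.120). For FBL the value was 0.16 with an interval of 0.02 to 0.30 (adjusted p = 0.213).

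In CFPAC-1 the smallest p-values were those of DYRK1B at 0.29 (adjusted p = 0.183), FBXO27 at 0.42 (adjusted p = 0.302) and HNRNPL at -0.26 (adjusted p = 0.310). For the difference of IKE effects, PANC-1 minus CFPAC-1, they were those of PSMC4 at 0.39 (adjusted p = 0.122), DYRK1B at -0.46 (adjusted p = 0.174) and ZNF780B at -0.43 (adjusted p = 0.320). The interval of this difference lay within -1 and 1 for 47 of 49 members. A p above the threshold does not show that values did not differ, and with 2 to 4 libraries a group small effects could not be told from the spread.

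**Figure D4:**
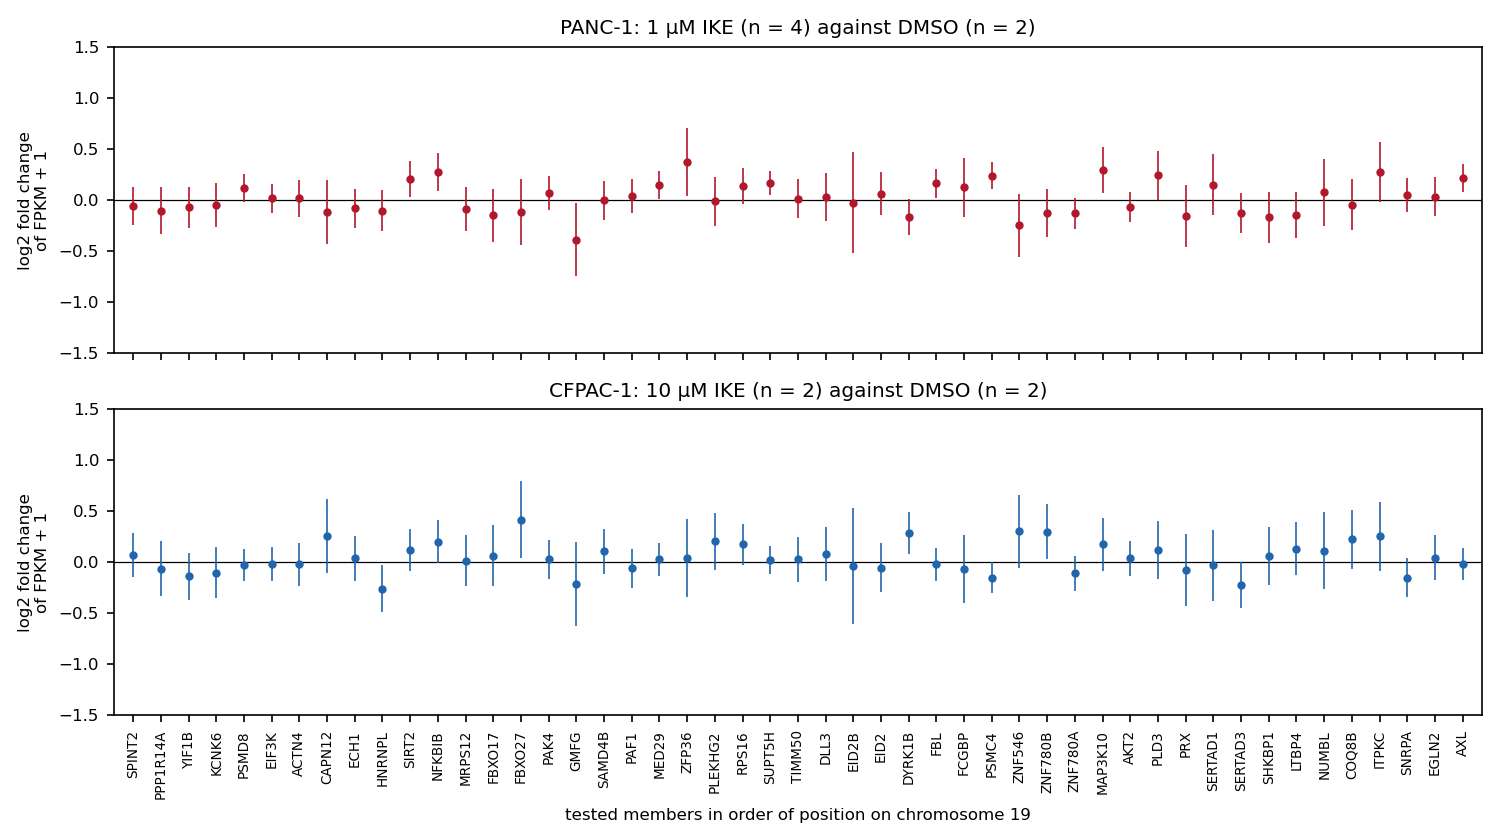
Log2 fold change of FPKM + 1 with IKE against DMSO (vertical axis; points are limma estimates and bars their 95% confidence intervals) for the 49 tested members in order of position (horizontal axis), in PANC-1 (upper panel, n = 4 against 2) and CFPAC-1 (lower panel, n = 2 against 2). The points lie between -0.39 and 0.42, and no member passed an adjusted p of 0.05.

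Of the 5 genes, among all 13077 tested, whose log2 levels over the 10 libraries were most like those of FBL by Pearson's r, SUPT5H and MED29 are members, while SRM lies on chromosome 1 and CAVIN1 on chromosome 17. The libraries fall into the 2 lines, so no pooled r is given, and the ranking rests on the difference between the lines. The log2 line differences were 3.95 for SUPT5H, 3.90 for MED29, 2.72 for SRM, a spermidine synthase, and 4.75 for CAVIN1, a coat protein of caveolae.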

How the data were processed

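Total RNA of 10 libraries was depleted of rRNA and sequenced with a strand-marking method, per the labels' protocols. The authors deposited FPKM values, rounded to 2 decimals, for 20289 Ensembl genes. Build GRCh38 is named in the submitters' processing notes, as are StringTie 1.3.4, HISAT2 2.1.0, Bowtie2 2.2.8, fastp 0.18.0 and DESeq2 as the authors' tools. The roles of these tools, the annotation and the filters were not stated in the material analysed, so overlapping genes and genes with near-identical copies are uncertain. Among members, SPINT2, ECH1, HNRNPL, FBXO17 and EGLN2 share exon bases with other listed genes on the same strand. The table has a further 9 columns without values, which were not used. No counts are given, so depth and counting error are unknown.

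Symbols and positions came from GENCODE 29, which placed 20171 genes. A gene was kept when 2 or more libraries reached 1 FPKM (13077 genes). A model of log2(FPKM + 1) with 1 mean for each of the 4 groups and an intensity-dependent prior was fitted to the 10 libraries with limma 3.58.1 under R 4.3.3 (6 residual and 5.1 prior degrees of freedom), two-sided, with Benjamini-Hochberg adjustment over all tested genes and a threshold of 0.05. Gene p-values are from this fit, apart from those that name an alternative, and the fit was tested on simulated data.

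Members, gene lists and stretches were chosen with earlier results of these data known. Named with values were FBL, RPS16, AKT2, the 8 highest and 8 lowest line differences, the 3 smallest p per IKE comparison, 3 tested genes at each end, up to 3 partners per list by smallest p, the 5 genes most like FBL (not all are reported here), and the other members by role. NOP58, SNU13, AKT1, RPS6, RPS13 and the extremes of other lists were named after their values were seen. Alternatives were quantile normalization, median-ratio scaling, no filter, at least 5 FPKM, a pseudocount of 0.1, a block for the replicate number, fits of each line alone, DMSO libraries alone, pairs of PANC-1 IKE replicates, FPKM rescaled without the members, and each library left out. Replicates 3 and 4 alone and the rescaling were chosen after seeing the data.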

Additional observations from a re-analysis of the deposited data

Results flagged for a closer look

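For 3 of the 49 tested members, 1 of the 4 libraries of PANC-1 with IKE lay apart from the other three, farther than the 95% limit of Dixon's test for a group of 4, which chance passes in about 1 of 20 groups. In each case it was replicate 2, at 3496.77 FPKM for FBL, 573.34 FPKM for SUPT5H and 261.07 FPKM for MED29. The other three libraries of the group lay at 3107 to 3147 FPKM for FBL, 527 to 532 FPKM for SUPT5H and 236 to 238 FPKM for MED29. Replicate 2 also had the highest FPKM total, 472665, and its part in these values was not tested. All 4 libraries of each gene lay far above those of CFPAC-1. The share of all tested genes past Dixon's limit is not given here, so nothing is read from the count of 3 members.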

How the results depend on the processing

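The members' median line difference of 2.79 was 2.48 with no low-value filter, which adds NCCRP1, and 1.53 over every tested gene between the ends. Leaving out a DMSO library gave 2.61 to 2.92. Median-ratio scaling moved the median of all genes to -0.06, against 0.12 as deposited, and the members' to 2.61. Line differences of members carry no test, and those near 0 that changed sign are named with their genes.

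With IKE in PANC-1, 311 genes were called in the fit reported. The count was 32 with a fit per line, 172 with PANC-1 IKE replicates 1 and 2 alone, 471 with replicates 3 and 4 alone, and 42 (without PANC-1 DMSO replicate 1) to 504 (without PANC-1 IKE replicate 2) when a library was left out. In CFPAC-1 the 173 calls became 262 with quantile normalization and 57 with a fit per line, and 80 to 256 when a library was left out. The 44 calls for the difference became 17 with replicates 1 and 2 alone, 69 with replicates 3 and 4 alone, and 13 to 62 when a library was left out. The cause of these shifts was not tested.

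The count of called members, 0 in each IKE comparison, was 0 to 1 in PANC-1 and 0 to 1 in CFPAC-1 when a library was left out, and 0 for the difference in every alternative. PSMC4 was called in PANC-1 without PANC-1 IKE replicate 3 (log2 fold change 0.27, adjusted p = 0.0397, range over alternatives 0.0397 to 0.897). ZNF546 was called in CFPAC-1 without CFPAC-1 IKE replicate 2 (0.63, adjusted p = 0.0478). HNRNPL was called in PANC-1 (-0.24, adjusted p = 0.0381) and in CFPAC-1 (-0.26, adjusted p = 0.0454) with PANC-1 IKE replicates 3 and 4 alone, 1 member in each. These p-values are from limma.

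The replicate numbers were not taken as pairs, since the labels do not say what a number marks and deviations of same-numbered libraries correlated at -0.027 to 0.118. With the replicate number as a block, 149 genes were called in PANC-1 and 15 for the difference, and no member was. Depth is unknown, so small changes of low genes cannot be judged.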
